A study of Homo sapiens with 9 samples.

Results

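Genes of the sensory hair cell of the inner ear, together with genes whose mutation causes hereditary deafness, were followed in human embryonic stem cells (hESC) differentiated towards otic progenitors. The set held 39 listed genes, and 36 of them had a probe set that named only that gene, among 19735 genes measured in all. SLC26A5, GRXCR1 and PTPRQ had no such probe set and were not analysed here. Where a gene had several, its brightest probe set, by the mean of the 9 arrays, was used. The genes were picked by function and not by how they changed, although earlier results of these data were known when the set was drawn up.

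Affymetrix expression arrays were made from 3 established hESC lines, Shef3, H14 and Shef1, with 1 array per line in each of 3 groups. The group hESC held undifferentiated cells at day 0, maintained on inactivated mouse embryonic fibroblasts with basic FGF at 4 ng/ml and no other treatment. The group DFNB held cells that were dissociated and grown on laminin for 14 days, in DFNB medium containing N2 and B27 and without added FGF. The group FGF3+10 was handled in the same way for 14 days, with FGF3 and FGF10 added at 50 ng/ml each. No group was sorted, so each array at day 14 measured a mixed culture, and fewer cells of a type and less RNA per cell cannot be told apart. Each of the 3 arrays of a group comes from another line, so the SD of a group includes line differences. Values for single arrays are given in the order Shef3, H14 and Shef1 throughout.

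Hair cells turn sound and head movement into electrical signals. Myosin motors and actin crosslinkers build the stereocilia of the hair bundle, the cadherins CDH23 and PCDH15 join neighbouring stereocilia as tip links, and tension on these links opens a channel that holds TMC1, TMIE, LHFPL5 and CIB2. The signal is passed on by a synapse that needs otoferlin (OTOF) and the glutamate transporter encoded by SLC17A8. ATOH1 starts the hair cell programme in the embryonic ear, and POU4F3 and GFI1 act after it. Other deafness genes act outside hair cells, in the tectorial membrane (TECTA, TECTB), in the fibrocytes and matrix of the cochlea (COCH), in gap junctions of supporting cells (GJB2, GJB6), or in most cells of the body. Otic progenitors precede hair cells in development, so the cells profiled here were not labelled as hair cells.

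The scale of the deposited values is logarithmic and was read as log2, with a median of 3.20 on every array and no lower bound. A level is a value on that scale, and a difference of 1 is called a log2 change of 1. Low levels were noisy: genes with a mean below 0 had a median within-group SD of 0.89, those between 0 and 4 had 0.82, and those above 8 had 0.33. A level of 4 was used to separate genes read clearly from genes near that noise, and it is not a detection call. The 13 measured markers of undifferentiated hESC averaged 10.50, 10.14 and 9.07 in hESC, 3.08, 6.95 and 8.55 in DFNB and 3.17, 8.54 and 8.75 in FGF3+10. They were thus near their day 0 level in Shef1 at day 14 and far below it in Shef3. The 14 markers of the otic placode and otic vesicle averaged 3.15, 3.41 and 2.77 in hESC, 4.44, 4.56 and 4.44 in DFNB and 4.51, 5.04 and 3.96 in FGF3+10. The control probe sets for bacterial poly-A spike-ins averaged 7.21 to 7.28 on the Shef1 arrays, 4.99 to 5.16 on H14 and 4.72 to 5.43 on Shef3, so Shef1 stood apart before any gene was considered.

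Promoters are shown for 6 of the genes so that their CG content can be set beside the levels reported next. Each sequence holds the 250 bases before 1 start listed for the gene, 5′ to 3′ on its strand, with CG dinucleotides in capitals. The source was RefSeq on GRCh38.p14. The listed start is not always the outer end of the gene. The windows of GSDME and CLRN1 here, and of LOXHD1, PCDH15 and GJB6 counted below, lie inside the gene's full annotated span. MYO6 and GSDME were among the highest genes, COCH and CLRN1 had the smallest p-values between day 14 and day 0 cells, and ATOH1 and OTOF are defining hair cell genes that stayed low.
MYO6 (chr6:75748989-75749238, plus strand): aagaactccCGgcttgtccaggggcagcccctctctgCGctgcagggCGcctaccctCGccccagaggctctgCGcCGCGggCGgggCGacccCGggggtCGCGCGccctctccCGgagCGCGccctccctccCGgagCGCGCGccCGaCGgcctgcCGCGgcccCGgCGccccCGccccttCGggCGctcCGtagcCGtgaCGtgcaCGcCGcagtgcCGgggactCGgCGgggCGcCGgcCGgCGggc
GSDME (chr7:24757465-24757714, minus strand): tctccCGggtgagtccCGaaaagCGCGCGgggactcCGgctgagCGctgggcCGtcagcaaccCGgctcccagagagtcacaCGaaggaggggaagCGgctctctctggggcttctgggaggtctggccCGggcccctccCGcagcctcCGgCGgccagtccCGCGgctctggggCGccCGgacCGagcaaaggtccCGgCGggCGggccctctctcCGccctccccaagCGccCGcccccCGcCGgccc
COCH (chr14:30874309-30874558, plus strand): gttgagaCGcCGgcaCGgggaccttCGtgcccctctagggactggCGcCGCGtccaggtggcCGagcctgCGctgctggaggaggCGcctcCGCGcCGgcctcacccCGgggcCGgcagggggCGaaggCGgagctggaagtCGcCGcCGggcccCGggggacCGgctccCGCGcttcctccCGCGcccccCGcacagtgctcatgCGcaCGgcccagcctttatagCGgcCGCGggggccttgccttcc
CLRN1 (chr3:150972728-150972977, minus strand): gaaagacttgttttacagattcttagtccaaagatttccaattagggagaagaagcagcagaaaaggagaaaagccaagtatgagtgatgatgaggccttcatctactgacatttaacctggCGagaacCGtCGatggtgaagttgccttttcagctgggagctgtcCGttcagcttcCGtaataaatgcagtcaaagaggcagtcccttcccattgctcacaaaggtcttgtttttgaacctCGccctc
ATOH1 (chr4:93828503-93828752, plus strand): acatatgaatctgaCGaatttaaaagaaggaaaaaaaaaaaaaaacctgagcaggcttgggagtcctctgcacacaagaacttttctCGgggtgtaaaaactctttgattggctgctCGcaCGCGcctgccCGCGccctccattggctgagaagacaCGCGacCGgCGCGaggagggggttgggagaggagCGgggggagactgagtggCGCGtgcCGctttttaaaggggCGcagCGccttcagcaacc
OTOF (chr2:26558757-26559006, minus strand): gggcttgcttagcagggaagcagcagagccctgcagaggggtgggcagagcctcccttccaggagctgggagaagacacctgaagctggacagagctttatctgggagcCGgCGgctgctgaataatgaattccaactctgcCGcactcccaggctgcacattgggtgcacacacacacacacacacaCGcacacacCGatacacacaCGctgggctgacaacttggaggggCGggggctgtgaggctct

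The CG dinucleotide, the letters C and G in a row, reads the same on both strands. It occurred 41 times in the MYO6 window, 28 times for GSDME, 32 for COCH, 6 for CLRN1, 18 for ATOH1 and 7 for OTOF. Promoter windows were found for 32 of the 36 genes. Of the 10 with a mean level above 4, 9 held at least 10 CG dinucleotides, and the median was 28. Of the 22 at or below 4, 12 did, with a median of 11. Over all genes with a window the shares were 86.6% of 9479 genes above level 4 and 41.5% of 5903 at or below it, with medians of 21 and 6. The split by CG content among hair cell and deafness genes thus went the same way as among all genes, and no test was made of it. CHRNA9 stood out among the higher genes with 3 CG dinucleotides, and CDH23 among the lower ones with 34. The regulators ATOH1, POU4F3 and GFI1 held 18, 12 and 19 although they were all low.

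**Figure D1:**
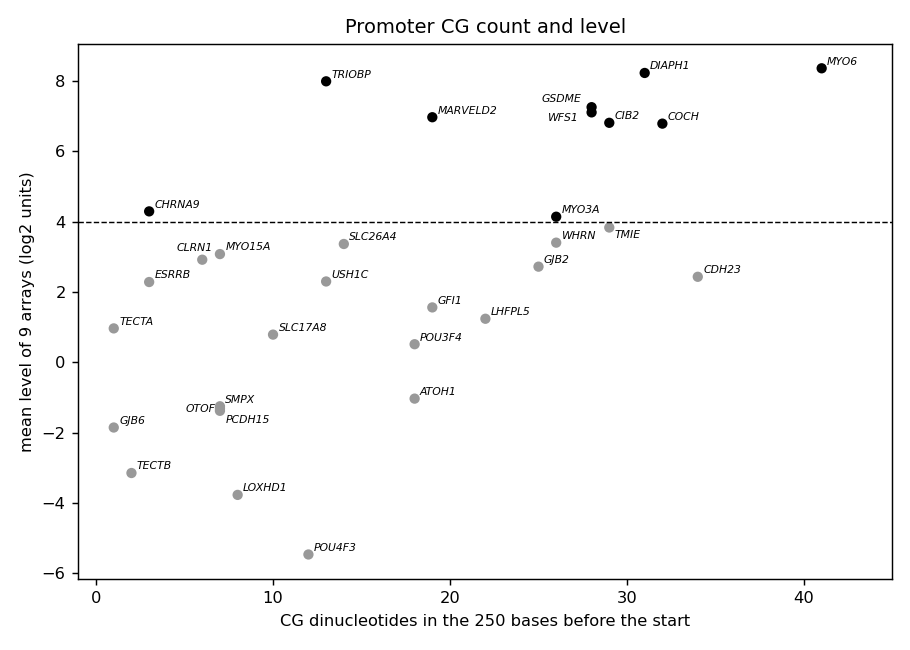
CG dinucleotides in the 250 bases before the start (horizontal axis, count) against the mean level of the 9 arrays (vertical axis, log2 units), 1 point for each of 32 genes; black points lie above level 4, marked by the dashed line, and grey points at or below it. Of the black points only CHRNA9, with 3, lies below 10 CG dinucleotides, while the grey points spread from 1 to 34. The start is the one listed for the gene, which for GSDME, CLRN1, LOXHD1, PCDH15 and GJB6 lies inside its full span.

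Of the 36 genes, 12 had a mean over the 9 arrays above level 4, or 33.3%, against 58.2% of all genes. From the lowest these were MYO3A (4.14), CHRNA9 (4.29), MYO7A (4.53), USH1G (5.16), COCH (6.79), CIB2 (6.81), MARVELD2 (6.97), WFS1 (7.11), GSDME (7.26), TRIOBP (7.99), DIAPH1 (8.23) and MYO6 (8.36). The genes just below it were TMIE at 3.83 and WHRN at 3.40. By group, 13 genes averaged above 4 in hESC, 10 in DFNB and 12 in FGF3+10, and single arrays had 11 to 14. A total of 9 genes exceeded 4 on all 9 arrays, 20 on none and 7 on some. Those 9 were MYO6, USH1G, COCH, TRIOBP, WFS1, GSDME, MARVELD2, CIB2 and DIAPH1. The highest 3, MYO6, DIAPH1 and TRIOBP, also act in many cells outside the ear. Hair cell genes lay on both sides of level 4. USH1G, MYO7A, CHRNA9 and MYO3A were above it, MYO7A and MYO3A only on the probe set used. OTOF, LOXHD1 and POU4F3 averaged -1.31, -3.78 and -5.47. TECTB and GJB6, which act outside hair cells, were also low, at -3.15 and -1.86. Levels of different genes come from different probes, so this order describes signal and not numbers of transcripts. Of the 19 genes with several probe sets, 10 had log2 changes of both signs from hESC to day 14 among them, so the values of a single probe set do not speak for every transcript of its gene.

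**Figure D2:**
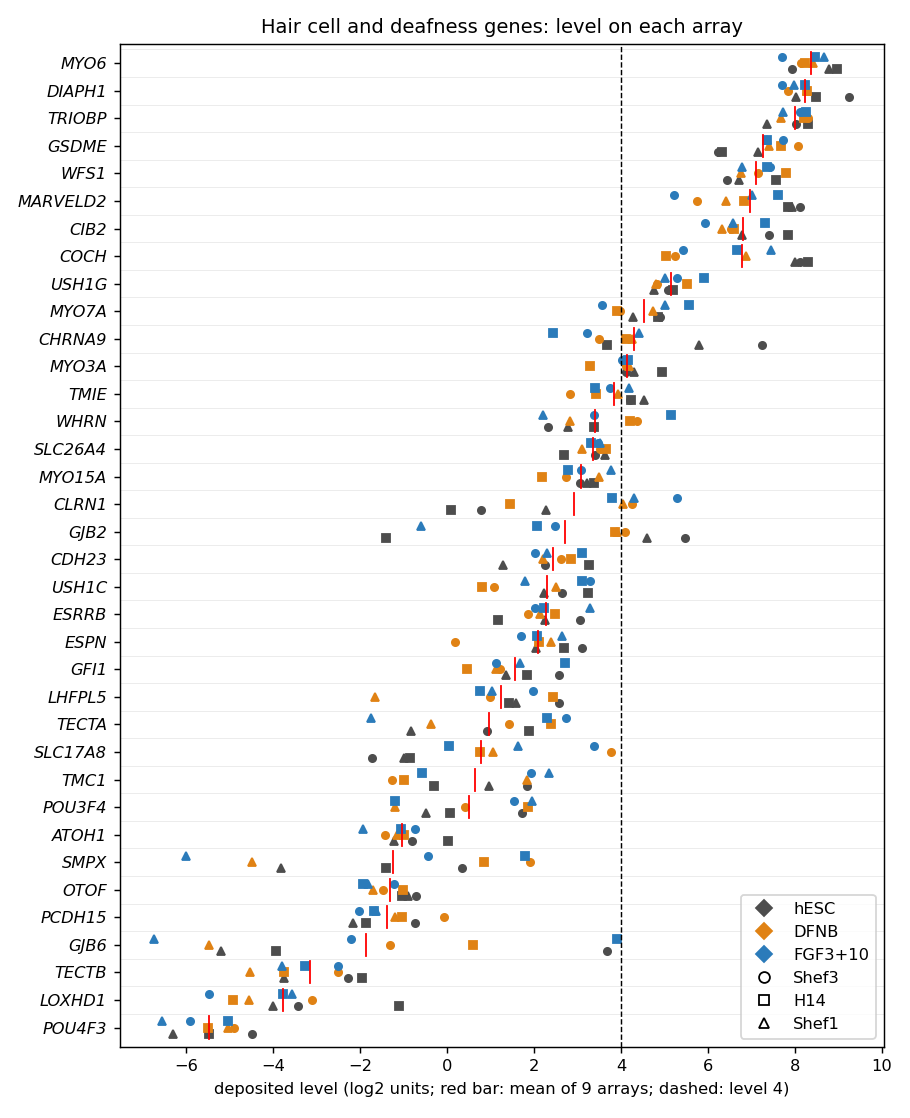
Level of each of 36 genes on the 9 arrays (horizontal axis, log2 units); colour gives the group, shape the cell line, the red bar the mean of 9 arrays and the dashed line level 4. Genes are ordered by mean, from POU4F3 at -5.47 to MYO6 at 8.36, and 12 bars lie right of the dashed line.

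The first question of the design is whether 14 days of differentiation, with or without FGF3 and FGF10, changed these genes, and the second is whether the added FGFs did. In limma's moderated test with Benjamini-Hochberg adjustment over all genes, none of the 36 passed an adjusted p of 0.05 in any comparison. Between DFNB and hESC 40 genes passed in all (0.203%), and 0 of the 36. At an unadjusted p below 0.05 it was 6 of the 36 against 15.8% of all genes. Between FGF3+10 and hESC 35 genes passed in all (0.177%), and 7 of the 36 had an unadjusted p below 0.05 against 12% of all genes. Between the mean of both day 14 groups and hESC 277 genes passed (1.4%), and 8 of the 36 had an unadjusted p below 0.05 against 18.2%. These 3 comparisons share the hESC arrays. At an unadjusted p the share among the 36 genes was above that of all genes, only slightly for DFNB and by most for FGF3+10. This order depended on the setting. For FGF3+10 it was 7 of the 36 against 16.9% with the cell line as a replicate block. A fit of the compared arrays alone gave 3 against 10.9%. Any excess was of few genes at most, and it was not tested. The median log2 change of the 36 was -0.36 for DFNB, -0.05 for FGF3+10 and -0.24 for both together, against -0.19 for all genes in each. After quantile normalisation the median of all genes was -0.08, -0.06 and -0.07, and that of the 36 was -0.20, 0.00 and -0.15.

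The cell line occurs in every group and was added as a replicate block in a second fit. With that block 189 genes passed between DFNB and hESC (0.958%), 115 between FGF3+10 and hESC (0.583%) and 613 between both day 14 groups and hESC (3.11%). CLRN1 then passed in the last of these and was the only one of the 36 genes to do so. Its log2 change was 2.80 ± 0.73 (SE; adjusted p = 0.109), with an SE of 0.49 and an adjusted p of 0.0408 with the replicate block.

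**Figure D3:**
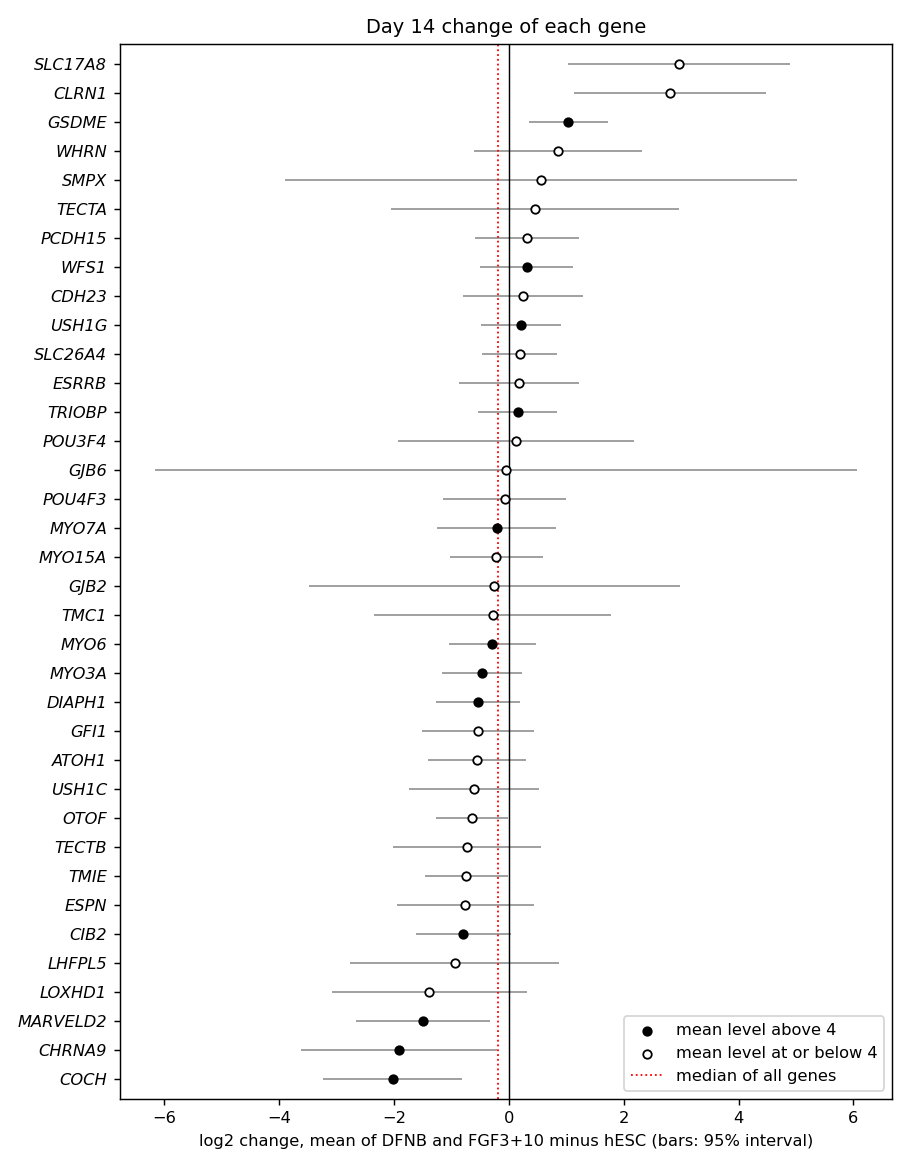
Log2 change of each gene from hESC to the mean of DFNB and FGF3+10 (points; horizontal axis) with its 95% interval from limma (bars); filled points have a mean level above 4, and the dotted line is the median of all genes at -0.19. COCH at -2.02 and SLC17A8 at 2.97 lie at the ends, and no gene passed the adjusted threshold.

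COCH encodes cochlin, a secreted matrix protein that is abundant in the inner ear. It stood at 8.12, 8.29 and 7.999 in hESC, 5.25, 5.03 and 6.87 in DFNB and 5.43, 6.67 and 7.45 in FGF3+10. The hESC arrays were the highest 3, and the groups did not overlap in either day 14 comparison. Its mean level was 8.14 ± 0.15 (SD, n = 3) in hESC, 5.71 ± 1.00 in DFNB and 6.51 ± 1.02 in FGF3+10. The log2 change was -2.42 ± 0.62 (SE, adjusted p = 0.141) for DFNB and -1.62 ± 0.62 (SE, adjusted p = 0.340) for FGF3+10, and -2.02 ± 0.53 for both (adjusted p = 0.110). With values below 4 set to 4 and the replicate block together, a setting added after seeing the data, the change for both groups had an adjusted p of 0.0453. By line, DFNB differed from hESC by -2.88, -3.26 and -1.13. Shef1, where markers of undifferentiated cells averaged 8.55 in DFNB, kept the highest COCH level in both day 14 groups. H14 and Shef3 had like COCH levels in DFNB, where those markers averaged 6.95 and 3.08. In FGF3+10 the markers averaged 3.17, 8.54 and 8.75, the same order of lines as COCH. Whether remaining undifferentiated cells took part in the COCH values was not tested. Its other probe sets gave changes of -0.68 and -2.18 for both groups. On the first, hESC (6.60, 7.80 and 6.94) overlapped DFNB (6.04, 6.34 and 6.81) and FGF3+10 (6.06, 6.44 and 6.92). On the second, hESC lay above all day 14 arrays.

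Of the other genes of the extracellular matrix, TECTA and TECTB encode tectorins of the tectorial membrane, and they averaged 0.96 and -3.15. Neither exceeded 4 on any array.

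Among junction and ion transport genes, MARVELD2 encodes tricellulin, which seals the corners where 3 epithelial cells meet. It stood at 8.12, 7.84 and 7.92 in hESC, 5.75, 6.84 and 6.40 in DFNB and 5.21, 7.61 and 7.02 in FGF3+10. All hESC arrays were above all day 14 arrays. The log2 change was -1.63 ± 0.59 (SE, adjusted p = 0.251) for DFNB and -1.35 ± 0.59 (SE, adjusted p = 0.417) for FGF3+10. In Shef3 the difference from hESC was -2.37 in DFNB and -2.91 in FGF3+10, and in H14 it was -1.01 and -0.23. The other probe set gave -1.41 for both groups against -1.49 for the one used. On it the groups overlapped, as H14 went from 4.42 in hESC to 4.65 in DFNB and 5.60 in FGF3+10. Shef3 and Shef1 were lower at day 14 there too.

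SLC26A4 encodes pendrin, an anion exchanger of the inner ear and thyroid, and ranged from 2.68 to 3.65 over the arrays. The connexins GJB2 and GJB6 spread far more, with ranges of 6.86 and 10.63 log2 units over the 9 arrays. GJB2 stood at 5.46, -1.40 and 4.60 in hESC, 4.08, 3.86 and 3.90 in DFNB and 2.48, 2.07 and -0.59 in FGF3+10. The DFNB values lay close together, between 3.86 and 4.08, and above those of FGF3+10, while the hESC values spanned both. GJB6 stood at 3.67, -3.94 and -5.21 in hESC, -1.32, 0.60 and -5.47 in DFNB and -2.22, 3.90 and -6.73 in FGF3+10. It was highest on the H14 array of FGF3+10 and the Shef3 array of hESC, and all Shef1 arrays were below -5. GJB2 and GJB6 were chosen for this detail after their values were seen.

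WFS1 and GSDME are deafness genes expressed in many tissues. GSDME encodes gasdermin E, which forms membrane pores when caspases cleave it. It stood at 6.22, 6.31 and 7.16 in hESC, 8.08, 7.68 and 7.41 in DFNB and 7.73, 7.35 and 7.36 in FGF3+10. The day 14 arrays all lay above the hESC arrays. The log2 change was 1.16 ± 0.35 (SE, adjusted p = 0.184) for DFNB and 0.92 ± 0.35 (SE, adjusted p = 0.342) for FGF3+10, and 1.04 ± 0.30 for both (adjusted p = 0.137). By line, DFNB differed from hESC by 1.85, 1.36 and 0.25, so the difference in Shef1 was the smallest. WFS1 encodes wolframin, a membrane protein of the endoplasmic reticulum. It stood at 6.44, 7.56 and 6.71 in hESC, 7.14, 7.79 and 6.77 in DFNB and 7.43, 7.35 and 6.79 in FGF3+10. Its groups overlapped, and its log2 change was 0.31 ± 0.36 (SE, adjusted p = 0.687) for both day 14 groups.

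Among genes of the tip link, its scaffold and their partners, CLRN1 had the largest change on the probe sets used. It encodes clarin, a membrane protein that is mutated in a form of Usher syndrome, in which deafness is joined by degeneration of the retina. It stood at 0.78, 0.10 and 2.27 in hESC, 4.26, 1.46 and 4.04 in DFNB and 5.29, 3.78 and 4.29 in FGF3+10. Every day 14 array was above the hESC array of its line, and in FGF3+10 all were above all of hESC. The log2 change was 2.20 ± 0.85 (SE, adjusted p = 0.272) for DFNB and 3.40 ± 0.85 (SE, adjusted p = 0.162) for FGF3+10. Much of it lay below level 4: with values below 4 set to 4, the change was 0.10 and 0.52. A further probe set gave changes of 3.34 and 4.69, and another one, below 0 on all arrays, gave -0.06 and -0.02. Genes of the eye field and retina, 13 measured, averaged 0.94, 1.60 and 1.37 in hESC, 4.33, 2.19 and 4.67 in DFNB and 4.22, 4.44 and 5.23 in FGF3+10. The DFNB array of H14 had the lowest day 14 value of both CLRN1 and that list. Within FGF3+10 the order differed, as Shef3 had the highest CLRN1 value and the lowest value of the list. The part of retinal cells in the CLRN1 values was not tested. CLRN1 was given in full because it passed with the replicate block.

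**Figure D4:**
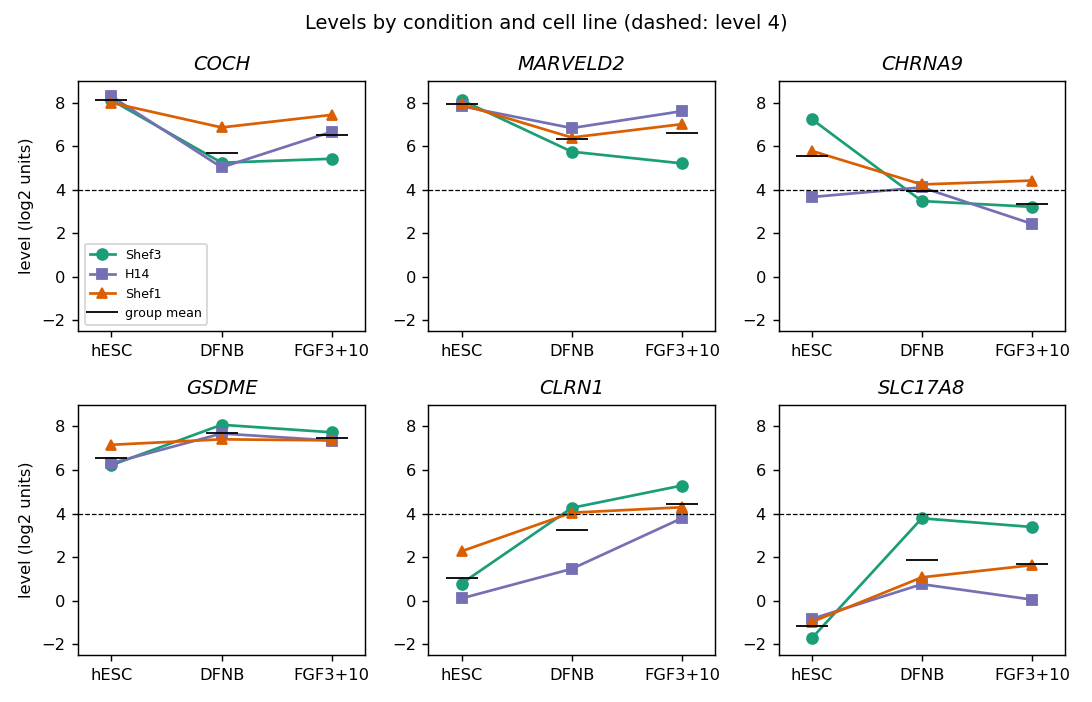
Level (vertical axis, log2 units) by group for 6 genes, with 1 line per cell line, a black bar at the group mean and a dashed line at level 4. On the probe sets used, COCH and MARVELD2 were highest in hESC in every line, and GSDME, CLRN1 and SLC17A8 were lowest there. CHRNA9 was highest in hESC in Shef3 and Shef1 but not in H14.

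USH1G encodes a scaffold protein at the upper end of the tip link. It stood at 5.09, 5.19 and 4.77 in hESC, 4.83, 5.52 and 4.80 in DFNB and 5.29, 5.92 and 5.01 in FGF3+10. The groups overlapped, and the log2 change for both day 14 groups was 0.21 ± 0.31 (SE, adjusted p = 0.757). Of the tip link cadherins, CDH23 averaged 2.43 and PCDH15 averaged -1.38, and neither exceeded 4 on any array. The harmonin gene USH1C averaged 2.30 and WHRN, the gene of whirlin, 3.40, with single WHRN values up to 5.15. The log2 change of WHRN for both day 14 groups was 0.86 ± 0.64 (SE, adjusted p = 0.508), its other probe set gave 2.74, and the mean of the probe sets gave 1.80. That of USH1C was -1.24 ± 0.57 (SE, adjusted p = 0.339) for DFNB and 0.03 ± 0.57 (SE, adjusted p = 0.992) for FGF3+10. The former had an adjusted p of 0.0488 with array weights, where the change was -1.80 and 8.24% of all genes passed. The other USH1C probe sets gave -1.82 and 0.70 for DFNB. In PCDH15 the FGF3+10 arrays all lay below the DFNB arrays, at levels from -2.02 to -0.06, while on its other probe set they overlapped.

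The myosin motors showed no separation between groups on the probe sets used. MYO6 encodes the motor that walks towards the minus end of actin filaments, and it is present in many epithelia. It stood at 7.92, 8.97 and 8.78 in hESC, 8.13, 8.23 and 8.42 in DFNB and 7.71, 8.45 and 8.66 in FGF3+10. MYO7A, the motor of the upper tip link, stood at 4.89, 4.84 and 4.28 in hESC, 3.98, 3.90 and 4.73 in DFNB and 3.55, 5.57 and 5.0 in FGF3+10. MYO3A, a motor of stereocilia tips, stood at 4.12, 4.94 and 4.31 in hESC, 4.10, 3.29 and 4.19 in DFNB and 4.02, 4.15 and 4.14 in FGF3+10. These 3 genes had log2 changes of -0.29, -0.21 and -0.47 for both day 14 groups, and MYO15A, which averaged 3.08, of -0.22. All 4 changes were negative, and the smallest of the 4 adjusted p-values was 0.444. The other 3 probe sets of MYO7A averaged between -0.07 and 1.06.

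Of the 4 genes of the mechanotransduction channel, CIB2 was the only one above level 4 on average. It encodes a calcium-binding partner of TMC1 and is expressed in many tissues. It stood at 7.41, 7.83 and 6.78 in hESC, 6.53, 6.60 and 6.33 in DFNB and 5.94, 7.31 and 6.58 in FGF3+10. All DFNB arrays were below all hESC arrays, while FGF3+10 overlapped hESC, and the log2 change was -0.85 ± 0.42 (SE, adjusted p = 0.362) for DFNB. Its next probe set gave -0.60 for both groups against -0.79, and a dim one gave 0.87. On the next one DFNB overlapped hESC, with 6.52 in H14 of DFNB against 6.42 in Shef1 of hESC. TMIE stood at 4.21, 4.24 and 4.53 in hESC, 2.83, 3.43 and 3.92 in DFNB and 3.75, 3.41 and 4.18 in FGF3+10. Its hESC arrays, at 4.21 to 4.53, were above all day 14 arrays, and the log2 change was -0.74 ± 0.31 (SE, adjusted p = 0.263) for both day 14 groups, or -0.29 with values below 4 set to 4. TMC1, the pore subunit, averaged 0.64 with a highest value of 2.35, and LHFPL5 averaged 1.24. The levels of TMC1 and LHFPL5 did not exceed 4 on any array.

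Genes of the actin core and surface of stereocilia divided into 2 high and 3 low ones. TRIOBP encodes a protein that bundles the actin rootlets, with other isoforms found in most cells. It stood at 8.03, 8.29 and 7.35 in hESC, 8.30, 8.20 and 7.68 in DFNB and 8.12, 8.25 and 7.71 in FGF3+10. DIAPH1 encodes a formin that nucleates actin filaments. It stood at 9.24, 8.49 and 8.03 in hESC, 7.85, 8.27 and 8.27 in DFNB and 7.70, 8.23 and 7.98 in FGF3+10. Groups overlapped for both genes, and their log2 changes for both day 14 groups were 0.15 and -0.54. The actin bundler ESPN averaged 2.10, and SMPX and LOXHD1 averaged -1.25 and -3.78. The other probe sets of TRIOBP did not all follow the one used. One with a mean level of 5.03 stood at 4.77, 4.25 and 3.88 in hESC, 5.76, 5.24 and 5.06 in DFNB and 5.59, 5.64 and 5.10 in FGF3+10. There all day 14 arrays were above all hESC arrays, with a change of 1.10 for both groups, and the remaining 3 gave 0.12, -0.10 and -0.01.

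Of the genes of the hair cell membrane and its synapses, CHRNA9 encodes a nicotinic acetylcholine receptor subunit at which efferent nerve fibres act. It stood at 7.25, 3.67 and 5.79 in hESC, 3.48, 4.11 and 4.25 in DFNB and 3.22, 2.44 and 4.42 in FGF3+10. Shef3 and Shef1 in hESC held the highest values and H14 did not, so that hESC overlapped DFNB and FGF3+10. The log2 change was -1.62 ± 0.86 (SE, adjusted p = 0.395) for DFNB and -2.21 ± 0.86 (SE, adjusted p = 0.350) for FGF3+10. SLC17A8 encodes a vesicular glutamate transporter of inner hair cells. It stood at -1.74, -0.85 and -0.99 in hESC, 3.78, 0.75 and 1.07 in DFNB and 3.38, 0.04 and 1.63 in FGF3+10. All day 14 arrays were above all hESC arrays, the highest being Shef3, but none reached level 4. The log2 change was 3.06 ± 0.98 (SE, adjusted p = 0.206) for DFNB and 2.88 ± 0.98 (SE, adjusted p = 0.289) for FGF3+10. OTOF, which encodes the calcium sensor of the hair cell synapse, ranged from -1.93 to -0.72. SLC17A8 and TMIE were given by array after their values were seen.

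None of the 5 transcription factors exceeded level 4 on any array. ATOH1 stood at -0.81, 0.02 and -1.22 in hESC, -1.43, -1.001 and -1.16 in DFNB and -0.73, -1.06 and -1.94 in FGF3+10. POU4F3, the lowest of the 36 genes, stood at -4.49, -5.47 and -6.30 in hESC, -4.91, -5.50 and -5.04 in DFNB and -5.92, -5.04 and -6.56 in FGF3+10. GFI1 stood at 2.56, 1.83 and 1.36 in hESC, 1.21, 0.45 and 1.11 in DFNB and 1.12, 2.70 and 1.68 in FGF3+10. For ATOH1 and POU4F3 the groups overlapped, and for GFI1 the DFNB arrays were all below those of hESC. The log2 changes for both day 14 groups were -0.55 ± 0.37 (SE, adjusted p = 0.466) for ATOH1, -0.07 ± 0.47 (SE, adjusted p = 0.951) for POU4F3 and -0.54 ± 0.42 (SE, adjusted p = 0.532) for GFI1. POU3F4, a factor of the mesenchyme around the otic vesicle and of the neural tube, ranged from -1.21 to 1.95. ESRRB, an orphan nuclear receptor needed in the inner ear and known as a pluripotency factor in the mouse, ranged from 1.18 to 3.29 and averaged 2.16 in hESC and in DFNB on the probe set used. Its other probe sets were lower in DFNB than in hESC. The brighter of them stood at 2.32, 3.49 and 3.05 in hESC and at 1.09, 0.22 and 0.67 in DFNB, with no overlap, and its change was -2.09 for both day 14 groups. The dimmer one gave -0.99. The mean of the ESRRB probe sets differed by -1.19 between DFNB and hESC. ESRRB was given in this detail after its values were seen. At these levels a rise within the noise would not have been detectable.

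Groups that did not overlap on the probe set used were counted beside the same count over all genes. Other probe sets of the same gene did not always separate the groups. Between DFNB and hESC, 5 of the 36 genes had all DFNB arrays below all hESC arrays (COCH, TMIE, MARVELD2, CIB2 and GFI1), against 14.4% of all genes, and 2 had them above (SLC17A8 and GSDME), against 7.79%. Between FGF3+10 and hESC, 4 were lower (OTOF, COCH, TMIE and MARVELD2), against 11.3%, and 3 higher (SLC17A8, GSDME and CLRN1), against 5.66%. Set against 36 genes, these counts lay near the background. Between FGF3+10 and DFNB, 2 were lower (PCDH15 and GJB2), against 1.72% of all genes, and none higher, against 1.46%. PCDH15 lay below level 4 on all of these arrays, and GJB2 on all but 1.

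The added FGFs made no difference that passed. In limma's test none of the 36 genes and 0 of all 19735 genes had an adjusted p below 0.05 between FGF3+10 and DFNB (0%), and at an unadjusted p below 0.05 it was 0 of the 36 against 1.52% of all genes. With the replicate block no gene passed either, and 1 of the 36 had an unadjusted p below 0.05, against 2.71% of all genes. That count lay near the share of all genes. The gene was PCDH15, with a log2 change of -1.01 and an SE of 0.40 with the block, or 0.46 without it. Over the 12 genes above level 4 the largest log2 change was that of COCH, at 0.80 (95% interval -0.60 to 2.20). For MARVELD2 the change was 0.28 (95% interval -1.06 to 1.63) and for GSDME -0.24 (95% interval -1.04 to 0.56). For CLRN1 it was 1.20 (95% interval -0.73 to 3.13), and its level was higher with FGFs in all 3 lines, by 1.03, 2.33 and 0.25. MYO15A, USH1G, TECTB, COCH and TMC1 were likewise higher in all 3 lines, and PCDH15, GJB2, GSDME and DIAPH1 were lower in all 3. Single differences among these were as small as 0.02 for TECTB in Shef3 and -0.04 for DIAPH1 in H14. The share of all genes with the same direction in every line was not counted, so no FGF effect is read from these names. The median width from the estimate to the end of the interval was 0.91 for the genes above 4 and 1.43 for those below, so smaller changes were not resolved.

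The cell lines were compared in a model of group and line, with each line measured on 3 arrays that differ in condition. In the moderated F test 96 of all genes passed (0.486%), and none of the 36 did. At an unadjusted p below 0.05 it was 6 of the 36, against 20.3% of all genes. SMPX, which encodes a small protein of muscle and hair cells, stood at 0.34, -1.41 and -3.82 in hESC, 1.90, 0.85 and -4.48 in DFNB and -0.45, 1.79 and -6.02 in FGF3+10. TECTA stood at 0.92, 1.88 and -0.83 in hESC, 1.41, 2.40 and -0.38 in DFNB and 2.73, 2.29 and -1.76 in FGF3+10. All Shef1 values of both genes lay below all values of the other lines, and the adjusted p was 0.0777 for SMPX and 0.0778 for TECTA. SMPX averaged 0.60 ± 1.19 (SD, n = 3 arrays) in Shef3, 0.41 ± 1.64 in H14 and -4.77 ± 1.13 in Shef1. TECTA averaged 1.69 ± 0.94, 2.19 ± 0.27 and -0.99 ± 0.70. The other TECTA probe set did not separate the lines, with -1.39, -1.40 and -0.19 in Shef1 against -2.06, -0.26 and -0.26 in Shef3. Both genes lay below level 4 on every array, and the spike-ins also set the Shef1 arrays apart, in the other direction. The part of array processing in these line differences was not tested. SMPX and TECTA were chosen after their values were seen.

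**Figure D5:**
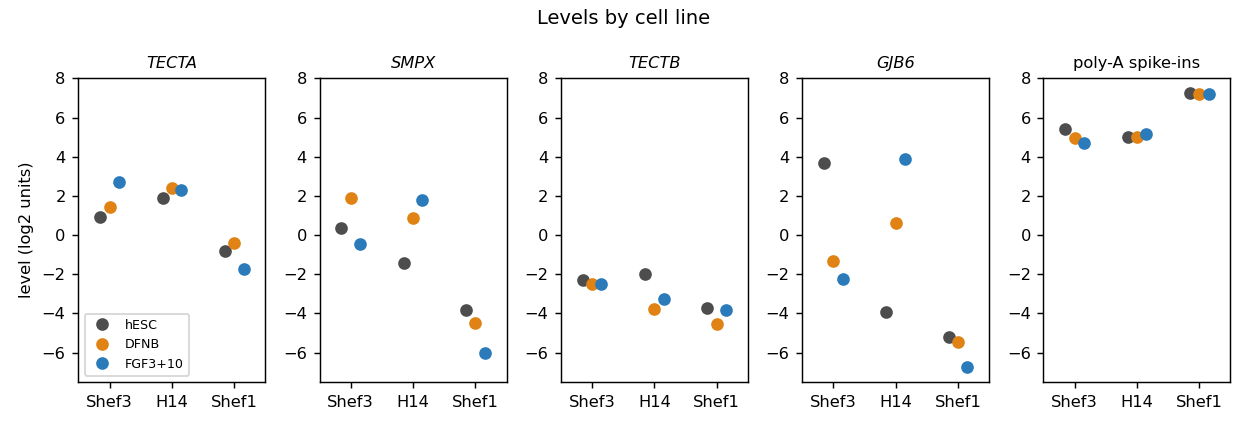
Level (vertical axis, log2 units) of TECTA, SMPX, TECTB, GJB6 and the mean of the poly-A spike-ins by cell line, 1 point per array, coloured by group. The Shef1 points of TECTA, SMPX and GJB6 are the lowest, and those of the spike-ins, at 7.21 to 7.28, the highest.

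Other genes of the inner ear, from lists drawn up with earlier results known, gave the setting. Of 19 further genes of the hair bundle, 9 lay above level 4 and none passed in any comparison. CLIC5, which encodes a protein of the base of stereocilia, had the largest log2 change for both day 14 groups, at 2.29 ± 0.86 (adjusted p = 0.219, and 0.0428 with the replicate block), and PKHD1L1 had -1.49 ± 0.48. CLIC5 lay below level 4 in the mean of each group, and its change was 0.25 with values below 4 set to 4. Of 17 further regulators and synapse or channel genes none passed. IKZF2, a zinc finger factor of outer hair cells, had a log2 change of 2.21 ± 0.51 (adjusted p = 0.0813, and 0.0316 with the replicate block), and SIX2, a homeobox gene, of 4.40 ± 1.02, or 2.30 with values below 4 set to 4.

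Of 12 tectorial, otoconial and supporting cell genes 1 rose for both day 14 groups and none fell. That gene, PROX1, a homeobox factor of supporting cells that also marks lens, liver and neural progenitors, went from 1.26 in hESC to 5.72 in DFNB and 6.30 in FGF3+10 (log2 change 4.75 ± 0.69, adjusted p = 0.0263). With the replicate block 2 passed as higher and 1 as lower. The added ones were COL2A1, a collagen of cartilage and the tectorial membrane, at 3.55 ± 0.69 (adjusted p = 0.0507, and 0.0165 with the block), and COL9A3, at -1.84 ± 0.65 (adjusted p = 0.194, and 0.0490 with the block). Of 17 genes of ion homeostasis and the stria vascularis none passed. The endothelin receptor gene EDNRB had a log2 change of -2.22 ± 0.48 and its ligand gene EDN3 of 3.22 ± 0.93 (adjusted p = 0.0671 and 0.131, and 0.0312 and 0.0322 with the replicate block). The change of EDN3 was 1.44 with values below 4 set to 4.

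Of 28 broadly expressed deafness genes 22 lay above level 4, and 1 fell for both day 14 groups and none rose. That gene was SYNE4, which encodes a nuclear envelope protein of hair cells and other epithelia, at 5.48 in hESC, 1.87 in DFNB and 2.99 in FGF3+10 (log2 change -3.05 ± 0.51, adjusted p = 0.0367). Of 14 genes of the otic placode and vesicle 2 rose for both day 14 groups and none fell. DLX5 and DLX6, homeobox factors of the preplacodal region and of the dorsal otic vesicle, had log2 changes of 3.31 ± 0.61 and 3.41 ± 0.56 (adjusted p = 0.0445 and 0.0343). With the replicate block 3 passed, EYA1 being added at 3.36 ± 0.72 (adjusted p = 0.0633, and 0.0362 with the block). The share of genes passing in that comparison was 1.4% over all genes, and the lists' medians were -0.27 for the hair bundle, -0.42 for regulators and synapse, 0.21 for tectorial and supporting genes, -0.43 for ion homeostasis, -0.27 for broad deafness genes and 0.89 for the otic list, against -0.19 for all genes. With values below 4 set to 4, the changes of PROX1, SYNE4, DLX5 and DLX6 were 2.01, -1.42, 0.58 and 0.30. Leaving out both day 14 arrays and the hESC array of Shef3, H14 or Shef1 left 4, 1 and 5 genes in all that passed in this comparison.

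Markers of other cell types that the cultures could hold gave the following counts for both day 14 groups. Of 13 eye field and retina genes 3 rose and none fell: FOXE3 had a log2 change of 10.09 ± 1.05 (adjusted p = 0.00807), SIX6 of 6.75 ± 0.92 (adjusted p = 0.0243) and SIX3 of 6.58 ± 1.24 (adjusted p = 0.0471). FOXE3 is a lens gene, and the other 2 encode homeobox factors of the forebrain and eye. With values below 4 set to 4, their changes in the same order were 3.49, 1.68 and 3.32. With the replicate block 4 passed, LHX2 being added at 5.82 ± 1.14 (adjusted p = 0.0509, and 0.0463 with the block). Of 12 neural crest and mesenchyme genes 1 rose and none fell, TFAP2A, at 2.61 ± 0.50 (adjusted p = 0.0480), which encodes a factor of surface ectoderm and crest. With the replicate block 3 passed as higher, SOX9 being added at 1.91 ± 0.38 (adjusted p = 0.0548, and 0.0438 with the block) and TFAP2B at 3.37 ± 0.87 (adjusted p = 0.106, and 0.0424 with the block). None passed among 13 markers of undifferentiated hESC, where the largest values were -8.18 ± 4.83 for NANOG and -6.51 ± 2.94 for PRDM14. None passed among 13 neural genes, with 3.40 ± 1.16 for ISL1 and 3.23 ± 1.11 for DCX, or among 8 epithelial genes, with 4.18 ± 2.25 for KRT5 and 2.04 ± 1.23 for KRT7. The part of these cell types in the levels of hair cell and deafness genes was not tested.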

How the data were processed

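Biotin-labelled RNA, amplified by the 3' IVT method from 200 ng of total RNA per the labels' protocols, was hybridised to 9 arrays. The authors deposited 1 log-scale value per probe set and array. The base is taken as log2 from the range of the values, -14.4 to 13.3, while the software, background correction and summary method were not given in the sources used here. Every array has the same median, so the deposited log2 values were used without further scaling.

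The platform annotation gave 1 gene symbol for 41091 of 54675 probe sets, several for 1801 and none for 11721, beside 62 controls. Symbols were updated through Entrez identifiers for 41037, which left 19735 genes, each read from its brightest probe set. Differences were tested with limma 3.58.1 in R 4.3.3 (lmFit and eBayes), with a mean per group over all 9 arrays and Benjamini-Hochberg adjustment over all genes at 0.05. The test was checked on simulated data. Nothing in the labels says that arrays of a line came from separate cultures, and p-values measure only the spread between these arrays. Precision is limited by how few arrays there are.

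The cell line pairs the arrays, since each line was cultured in all 3 groups. Deviations from the group mean correlated within a line at 0.105, 0.0864 and 0.339 (Shef3, H14 and Shef1) for hESC with DFNB. For hESC with FGF3+10 the values were 0.182, 0.259 and 0.284, and for the day 14 groups with each other 0.401, 0.331 and 0.714.

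The members and lists were chosen with earlier results of these data known. Values on every array are given for members with a mean above 4, for members called, and for ATOH1, POU4F3 and GFI1. Those of GJB2, GJB6, CLRN1, SLC17A8, TMIE, SMPX and TECTA were added after their values were seen. From each other list the called genes are named, or else the 2 with the largest change. Genes of the other lists that passed only with the replicate block were also added then. So were other probe sets of ESRRB, WHRN, USH1C, TRIOBP, TECTA, COCH, MARVELD2, CIB2, MYO7A and MYO3A. Alternatives were the replicate block, quantile normalisation, values below 4 set to 4, a filter on dim genes, the mean of probe sets, array weights, a fit of the compared arrays alone, and leaving out lines or arrays.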

Additional observations from a re-analysis of the deposited data

Results flagged for a closer look

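In MYO7A every day 14 array of Shef3 lay below its hESC array and every day 14 array of Shef1 above, with mean log2 changes of -1.12 and 0.59, a difference of -1.71. In TRIOBP the H14 arrays lay below their hESC array, at -0.06, and those of Shef3 and Shef1 above, at 0.18 and 0.34. The differences were 0.24 for Shef3 minus H14 and -0.41 for H14 minus Shef1. These differences between lines were not tested, and both day 14 values of a line share its hESC array.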

How the results depend on the processing

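Of all genes, 40 passed for DFNB against hESC, 35 for FGF3+10 against hESC, 277 for both day 14 groups and 96 between cell lines. In that order, the counts were 189, 115 and 613 with the replicate block. With values below 4 set to 4 they were 184, 124, 476 and 468. Among genes with a mean of at least 4 they were 122, 66 and, between lines, 491. With array weights, whose estimate stopped before reaching its tolerance, they were 1627, 292, 1423 and 4491. A fit of the compared arrays alone gave 26 and 15. Between lines, quantile normalisation gave 58 and the mean of probe sets 217. The replicate block together with values below 4 set to 4, chosen after seeing the data, gave 422, 227 and 964. Leaving out lines or single arrays gave 0 to 71, 0 to 32, 1 to 237 and 16 to 55. FGF3+10 against DFNB gave 0 genes in every setting run.

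Of the 36 hair cell and deafness genes, none passed when a line or array was left out. With array weights 3 passed for DFNB against hESC (COCH, GSDME and USH1C), where 8.24% of all genes did. For both day 14 groups 3 passed (COCH, GSDME and CLRN1), against 7.21% of all genes, and between lines 8, against 22.8%. Set against 36 genes, these counts with array weights lay near the shares of all genes. The replicate block gave 1 for both day 14 groups, CLRN1, against 3.11% of all genes. With values below 4 set to 4 as well it gave 1 of the 16 tested, COCH, against 7.2% of all genes tested. The mean of probe sets gave 1 between lines, WHRN, against 1.1% of all genes. The number of genes above level 4 was 12, and 16 at a level of 3 or 9 at a level of 5. With the mean of probe sets 10 lay above level 4, or 27.8%, against 45.8% of all genes. Causes were not tested. The noise of dim probe sets limits what can be seen in the 24 genes at or below level 4.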
